A study of Mus musculus with 6 samples.

Results

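The genes described here are 7 interferon regulatory factors, Irf1, Irf2, Irf3, Irf5, Irf7, Irf8 and Irf9, and Batf2, 8 genes of 19087 that the array measured with a single gene symbol. They were chosen by gene symbol, and every array feature that the platform annotation assigned to 1 of these symbols was kept, which gave 13 features of 33653. RNA came from cultured mouse sympathetic neurons, on 6 two-colour Agilent expression arrays. In the control group, 3 samples were untreated neurons, and in the interferon-gamma group, 3 samples were neurons that had received interferon-gamma at 500 U per ml, both with a time of 24 h in the labels. Each array carried neuron RNA labelled with Cy5 beside a common reference labelled with Cy3, the RNA of untreated cervical sympathetic ganglia of postnatal day 5. No strain, genotype or age of the cultures was given in the sources used here, and no label tells whether replicates were separate cultures, so each p-value measures only the spread among the samples, part or all of which may be technical.

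Interferon regulatory factors are transcription factors that share an amino-terminal DNA-binding domain and recognise GAAA repeats, the interferon-stimulated response element (ISRE). Interferon-gamma acts through its receptor and the kinases JAK1 and JAK2, and the response is known to run through another sequence, the gamma-activated site (GAS). IRF1 and IRF8 are textbook targets of this route, IRF9 is the DNA-binding subunit of the complex ISGF3, and IRF3, IRF5 and IRF7 are switched on by phosphorylation downstream of sensors of microbial nucleic acids. BATF2 is a basic leucine zipper protein of the AP-1 family, known from macrophages as a gene that interferon-gamma induces and as a partner of IRF1.

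The RefSeq table of promoters for GRCm38.p6 held 10 start sites for 7 of the 8 genes, all but Batf2. In each, the 250 bases upstream of the annotated start were searched for the GAS core TTCNNNGAA, which reads the same on both strands, and for the ISRE core GAAANNGAAA on either strand. A GAS core was present upstream of 3 genes, Irf1, Irf8 and Irf2, and these windows are printed because the first 2 genes rose with interferon-gamma and Irf2 did not pass the test. Capitals mark the matches, and each sequence runs 5′ to 3′ on the strand of the gene.
Irf1, plus strand, chr11:53769764-53770013: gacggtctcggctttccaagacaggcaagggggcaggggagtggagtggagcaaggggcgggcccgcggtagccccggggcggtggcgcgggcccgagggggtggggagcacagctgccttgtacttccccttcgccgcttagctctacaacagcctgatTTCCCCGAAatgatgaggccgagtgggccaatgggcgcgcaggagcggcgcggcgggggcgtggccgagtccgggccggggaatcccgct
Irf8, plus strand, chr8:120736108-120736357: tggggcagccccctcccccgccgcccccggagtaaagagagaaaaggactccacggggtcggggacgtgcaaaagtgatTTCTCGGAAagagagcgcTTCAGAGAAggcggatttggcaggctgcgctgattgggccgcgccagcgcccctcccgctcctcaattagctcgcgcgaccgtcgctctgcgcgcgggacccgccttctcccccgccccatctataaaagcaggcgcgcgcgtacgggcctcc
Irf2, plus strand, chr8:46739495-46739744: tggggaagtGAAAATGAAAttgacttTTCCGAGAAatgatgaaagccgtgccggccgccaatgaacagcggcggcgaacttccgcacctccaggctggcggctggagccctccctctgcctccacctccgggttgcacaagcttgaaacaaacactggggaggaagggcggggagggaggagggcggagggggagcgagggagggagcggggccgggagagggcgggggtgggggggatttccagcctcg
The match of Irf1, TTCCCCGAA, began 90 bases before the annotated start. Irf8 had 2 matches to the GAS core, TTCTCGGAA from 171 and TTCAGAGAA from 153 bases before the start. Irf2 had the GAS match TTCCGAGAA from 224 bases and the single ISRE match, GAAAATGAAA, from 241 bases before the start, and the matches did not overlap. Of all 32851 windows of 250 bases in the table, 7.02% held a GAS core, 0.317% held 2 or more, 2.98% held an ISRE core and 0.332% held both. No match to either core was found in these windows of Irf3, Irf5, Irf7 or Irf9, nor at the second listed start of Irf1 and Irf8. A match is a run of letters and not evidence of binding.

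**Figure D1:**
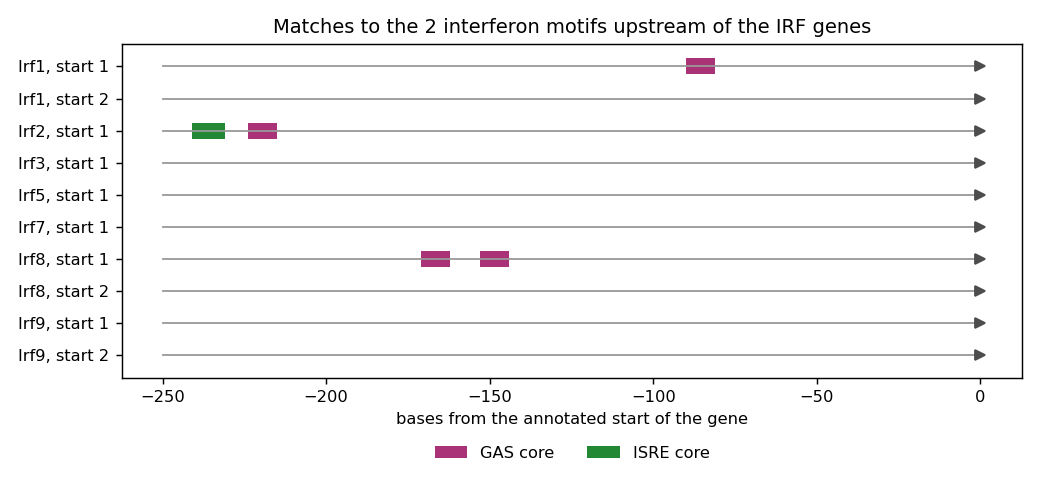
Positions of matches to the GAS core (purple) and the ISRE core (green) in the 250 bases before each annotated start, at 0, of 7 interferon regulatory factor genes. The horizontal axis is the distance from the start in bases. The matches lie at the first listed start of Irf1 and Irf8 and far upstream, from 241 bases, at Irf2, while the other 7 windows hold none.

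With interferon-gamma, 5 of the 8 genes rose, namely Batf2, Irf8, Irf7, Irf1 and Irf9, and none fell. The test was limma on all 19087 genes, with Benjamini-Hochberg adjustment and a threshold of 0.05, under which 1.12% of all genes were called higher and 0.021% lower. At an unadjusted limma p under 0.05, 6 of the 8 genes were higher and 0 lower. The share of all genes at an unadjusted p, here and below, was not counted. The median difference between the groups was 1.89 over the 8 genes and 0.01 over all genes. In all of the text, a value per array is the log2 ratio of neuron RNA over ganglion reference RNA, averaged over the features of the gene, and a difference is the interferon-gamma mean minus the control mean on the log2 scale. All 3 treated arrays lay above all 3 control arrays for 6 of the 8 genes, the 5 that rose and Irf5, and 8.08% of all genes showed this separation. Feature by feature, 7 of 13 rose, against 0.978% of all 33653 features. The differences fell in the order Batf2, Irf8, Irf7, Irf1, Irf9, Irf5, Irf2 and Irf3. From its features annotated to a RefSeq transcript alone, Irf1 was at 3.17, above the 2.80 of Irf7. Measured per treated array against the control mean, Irf7 and Irf1 overlapped (2.41 to 3.11 and 1.99 to 2.46), and so did Irf2 and Irf3 (-0.07 to 0.45 and -0.14 to 0.14). The ranges of the other neighbours in this order were apart. In bulk RNA, more cells that express a gene and more RNA per cell cannot be told apart.

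**Figure D2:**
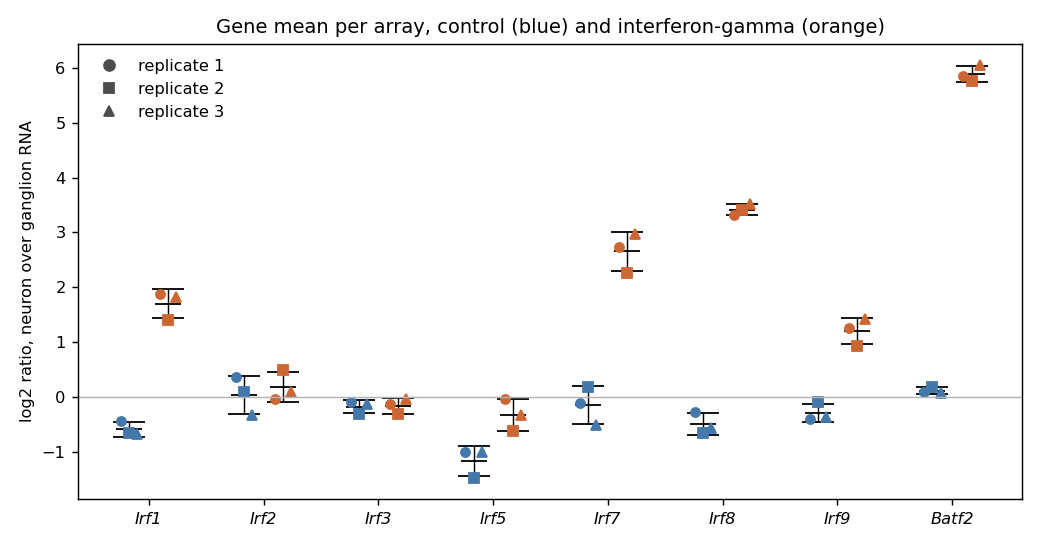
Log2 ratio of neuron over ganglion RNA for each of the 8 genes (vertical axis) on the 3 control arrays (blue) and the 3 interferon-gamma arrays (orange), with the replicate number as the symbol. Long bars are group means and whiskers are 1 SD (n = 3). Batf2 rises from near 0 to 5.76 or more, while the groups of Irf2 and Irf3 overlap.

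Batf2 had the widest separation of the 8 genes. Its log2 ratios were 0.09, 0.19 and 0.08 on the control arrays and 5.84, 5.76 and 6.06 on the interferon-gamma arrays. Untreated neurons were thus close to the ganglion reference, 1.08 times its signal, and treated neurons far above it, 59.2 times. The difference was 5.77 ± 0.12 (SE, n = 3 per group), a fold of 54.6 with a 95% interval from 44.3 to 67.3 (limma, adjusted p = 2.79e-05). It ranked 6 among all genes by size, and was 4.91 with quantile normalization. Batf2 rests on 1 feature, so no second probe checks it. Its relatives Batf and Batf3, which pair with Jun and IRF proteins in lymphoid and dendritic cells, differed by 0.28 ± 0.23 (adjusted p = 0.806) and 0.95 ± 0.38 (adjusted p = 0.596), both by limma.

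Irf8 is a factor that directs the development of monocytes and dendritic cells and binds DNA with the partner PU.1. Its signal was lower in untreated neurons than in the ganglion reference, a comparison with no dye swap and no test. Its ratios were -0.27, -0.65 and -0.56 on the control arrays and 3.32, 3.41 and 3.51 on the treated arrays. The treated arrays agreed within 0.19 of each other. The difference was 3.91 ± 0.14 (SE, n = 3 per group), 15.0-fold (95% interval 11.8 to 19.1; limma, adjusted p = 0.000189). Both features rose, by 4.398 (adjusted p = 0.00051) and 3.42 (adjusted p = 0.000379) in limma over all 33653 features. Spi1, which encodes PU.1, had a difference of -0.21 ± 0.20 (limma, adjusted p = 0.829), with ratios of -0.68 to -0.27 on control and -0.96 to -0.38 on treated arrays.

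Because macrophages express Irf8 and Irf5, a list of 15 macrophage markers was read beside them. Of the 13 measured, 2 rose, the complement genes C1qa (1.64 ± 0.23, limma adjusted p = 0.0288) and C1qc (1.53 ± 0.20, adjusted p = 0.0211), and 6 had all treated arrays above all control arrays. Of all genes, 1.12% were called higher and 8.08% had this separation. At an unadjusted limma p under 0.05, 7 of the 13 were higher and 0 lower, the other 5 being Ptprc (0.90 ± 0.30), Fcer1g (0.78 ± 0.14), Aif1 (0.71 ± 0.15), C1qb (0.64 ± 0.12) and Tyrobp (0.58 ± 0.20). The count of 2 was 0 without any 1 of the control arrays or without interferon-gamma array 1 or 3, and 5 without interferon-gamma array 2. The sum of the linear ratios of the 13 genes was 9.73 to 11.8 on control arrays and 13.8, 16.9 and 18.4 on interferon-gamma arrays 2, 1 and 3. Of the 6 that had larger p-values, Adgre1, a surface receptor of mouse macrophages, differed by 0.62 ± 0.35 (adjusted p = 0.71), Cx3cr1 by 0.03 ± 0.19 (adjusted p = 0.978) and Itgam, which encodes CD11b, by -0.42 ± 0.22 (adjusted p = 0.702), and Cd14, Mrc1 and Cd163 by 0.05 ± 0.25, -0.46 ± 0.40 and -0.87 ± 0.36, all by limma. No ratio says whether a marker is absent, because signals were not analysed here. On interferon-gamma arrays 1, 2 and 3, Irf8 was at 3.32, 3.41 and 3.51 and the macrophage sum at 16.9, 13.8 and 18.4. The part of these cells in the result of Irf8 was not tested. None of the 44 measured markers of other leukocytes, satellite and Schwann cells, fibroblasts, endothelium and sympathetic neurons passed in limma. At an unadjusted p under 0.05, 1 of them was higher, Zbtb46 of dendritic cells (0.28 ± 0.11), and 1 lower, the glial S100b (-1.07 ± 0.40).

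Irf7, the factor that amplifies type I interferon production, had ratios of -0.11, 0.18 and -0.51 on the control arrays and 2.73, 2.27 and 2.97 on the treated arrays. The groups were far apart although each spread by about 0.7. Irf7 rose by 2.80 ± 0.25 (SE, n = 3 per group), 6.95-fold (95% interval 4.60 to 10.5; limma, adjusted p = 0.00353), on 1 feature. Irf3, the other main factor that virus sensors activate, is present in most cells before infection and is controlled at the protein. Its ratios were -0.10, -0.30 and -0.12 on the control arrays and -0.12, -0.32 and -0.03 on the treated arrays, so the groups overlapped fully. The difference of Irf3 was 0.02 (95% interval -0.30 to 0.33; limma, adjusted p = 0.985), and its 2 features differed by -0.10 and 0.13. Changes of Irf3 RNA outside 0.814-fold to 1.26-fold lie beyond that interval.

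The 3 features of Irf1, an early activator of interferon targets and of genes for antigen presentation, gave unequal differences. The means over the features were -0.44, -0.66 and -0.67 on the control arrays and 1.87, 1.40 and 1.83 on the treated arrays, and did not overlap. Irf1 rose by 2.29 ± 0.17 (SE, n = 3 per group), 4.89-fold (95% interval 3.70 to 6.46; limma, adjusted p = 0.00153). The 2 features annotated to the RefSeq transcript rose by 2.98 and 3.36 (limma over features, adjusted p = 0.00062 and 0.00051). The feature annotated to a GenBank cDNA in place of that transcript had ratios of 0.44, -0.56 and -0.65 on control and 0.48, -0.37 and 0.70 on treated arrays, which overlap, and a difference of 0.53 ± 0.39 (adjusted p = 0.793). From the RefSeq features alone, a choice made after the features were seen, the difference was 3.17 ± 0.13 (adjusted p = 0.000158).

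**Figure D3:**
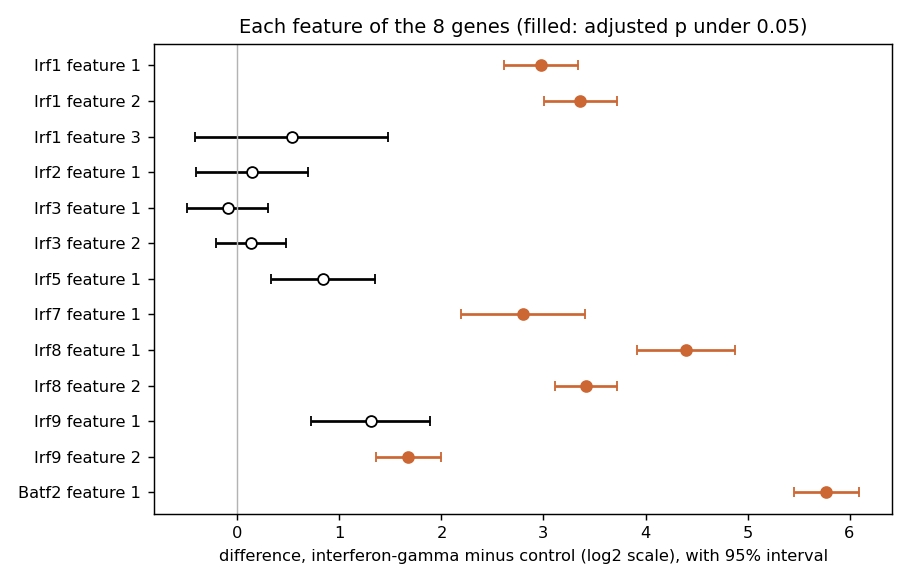
Difference between interferon-gamma and control arrays (horizontal axis, log2 scale) for each of the 13 features of the 8 genes, with 95% intervals of limma (n = 3 per group). Filled orange points have an adjusted p under 0.05 over all features. The third feature of Irf1 and the first of Irf9 are open, whereas the other features of these genes are filled.

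Irf2, the close relative of Irf1 that binds the same elements and is known as its antagonist, had ratios of 0.36, 0.10 and -0.33 on the control arrays and -0.03, 0.49 and 0.09 on the treated arrays. The groups overlapped. The difference was 0.14 (95% interval -0.40 to 0.68; limma, adjusted p = 0.897), which leaves room for folds from 0.758 to 1.60. It turned sign without control array 3 (-0.0455) or interferon-gamma array 2 (-0.013).

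Irf9 had ratios of -0.40, -0.09 and -0.37 on the control arrays and 1.26, 0.94 and 1.42 on the treated arrays, with no overlap. It rose by 1.49 ± 0.17 (SE, n = 3 per group), 2.81-fold (95% interval 2.12 to 3.72; limma, adjusted p = 0.0106). The call was the least stable of the 5. It was lost with quantile normalization (adjusted p = 0.0573), with the replicate number as a block (0.0765), and without control array 1 (0.0703), control array 3 (0.0594), interferon-gamma array 1 (0.0676) or interferon-gamma array 3 (0.061), with the direction kept each time. Of its 2 features, 1 rose by 1.67 (adjusted p = 0.00287) and the other had a difference of 1.31 (adjusted p = 0.102).

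Irf5, a factor of Toll-like receptor signalling known from myeloid and B cells, was the gene farthest below the ganglion reference in untreated neurons, at 0.447 times its signal. Its ratios were -1.004, -1.479 and -1.004 on the control arrays and -0.04, -0.61 and -0.33 on the treated arrays. The groups did not overlap, but the gene did not pass. The difference was 0.84 (95% interval 0.34 to 1.33; limma, adjusted p = 0.254), 1.79-fold. Genes with low control ratios moved up as a whole on 2 of the treated arrays. The 740 genes with a control mean under -1 shifted by a median of 0.85, -0.18 and 0.69 on interferon-gamma arrays 1, 2 and 3, where Irf5 shifted by 1.13, 0.55 and 0.83. The 99 genes with a control mean over 1.5 shifted by a median of -1.13, 0.05 and -0.83 on the same arrays. Both sets were chosen by the control mean from which their shifts are measured. What this choice adds to the shifts was not tested. The macrophage marker C1qa, with a control mean of -1.34, is among the 740 genes. The part of these shifts in the values of Irf5 and C1qa was not tested.

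The difference in response was compared for 3 pairs of genes by subtracting 1 member from the other on each array. Irf1 minus Irf2 was -0.80, -0.76 and -0.34 on the control arrays and 1.90, 0.90 and 1.74 on the treated arrays, a difference of 2.15 ± 0.35 (SE), or 3.03 with RefSeq features only. Irf7 minus Irf3 differed by 2.78 ± 0.25, and Irf8 minus Irf5 by 3.07 ± 0.32. All 3 had treated arrays that did not overlap the control arrays. The exact two-sided permutation test gave p = 0.1 for each pair, which is the smallest p that 3 arrays against 3 allow, so it cannot reach 0.05. With limma over all other genes minus the same partner, the adjusted p was 0.00122, 0.000823 and 2.81e-09. In these fits the noise of the partner is shared by all genes, so the adjusted p-values are too small.

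The genes around the family were read in 6 lists, of which 30 of 90 different measured genes rose. Of 14 textbook targets of IRF1, 9 rose, with a median difference of 2.45, and of 17 textbook targets of ISGF3, 15 rose, with a median of 2.29. Both medians stand beside 0.01 for all genes, and the counts beside 1.12% of all genes called higher. The lists were chosen with earlier results of these data known, so the counts are no test of these factors. Among the IRF1 targets were the immunoproteasome subunit Psmb9 (3.27 ± 0.16), Ciita, the master regulator of MHC class II genes (2.51 ± 0.15), and Gbp2b (4.23 ± 0.23). Nos2, the inducible nitric oxide synthase that needs IRF1 in macrophages, did not pass, at 0.07 ± 0.13 (limma, adjusted p = 0.91), nor did Il27 at -0.10 ± 0.13 (adjusted p = 0.871), Il15 at 0.98 ± 0.20 (adjusted p = 0.143), Vcam1 at 1.70 ± 0.44 (adjusted p = 0.285) and Casp1 at 2.39 ± 0.49 (adjusted p = 0.135). Among the ISGF3 targets, Usp18 rose by 4.72 ± 0.26 and Ifit1 by 4.56 ± 0.22, and the 2 that did not pass were Oas2, at 2.01 ± 0.36 (adjusted p = 0.083), and Oas3, at 1.49 ± 0.28 (adjusted p = 0.0938).

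Upstream of the factors, most genes did not pass. The share called higher among all genes was 1.12%. In the list of receptor, kinases, STAT genes and feedback regulators, 3 of 13 rose, namely Socs1 (2.96 ± 0.19), Nmi (1.66 ± 0.14) and Ifi35 (1.66 ± 0.12). Stat2, the partner of Irf9 in ISGF3, had a difference of 1.64 ± 0.33 that did not pass (limma, adjusted p = 0.127), and its control arrays spread from 0.10 to 1.22. Among 16 sensors, adaptors and kinases that act on IRF3, IRF5 and IRF7, 3 rose, all of them sensors or regulators of double-stranded RNA sensing. They were Ifih1, which encodes MDA5 (3.24 ± 0.17), Dhx58, which encodes LGP2 (2.14 ± 0.18), and Tlr3 (1.82 ± 0.24). The kinases Tbk1 and Ikbke were at 0.29 ± 0.14 (adjusted p = 0.669) and 0.24 ± 0.24 (adjusted p = 0.834). The adaptors did not pass either, with Ticam2 at -0.51 ± 0.47 (adjusted p = 0.819), Mavs at -0.14 ± 0.13 (adjusted p = 0.82), Ticam1 at 0.04 ± 0.15 (adjusted p = 0.966), Myd88 at 0.60 ± 0.19 (adjusted p = 0.434), whose treated arrays all lay above the control arrays, and Sting1 at 1.03 ± 0.46 (adjusted p = 0.653). Irf2bp1, Irf2bp2 and Irf2bpl, corepressors of the IRF2-binding family, had differences of 0.05, -0.03 and 0.10, and 0 of 12 partners passed in limma (3 at an unadjusted p under 0.05). In limma without control array 1, Stat2 passed (2.00 ± 0.20, adjusted p = 0.0252). With all arrays, Stat2 passed among the genes of higher SD (1.64 ± 0.35, limma adjusted p = 0.0241). A difference between the groups raises that SD, so this is no added support. Without interferon-gamma array 2, Jun, the AP-1 subunit with which BATF proteins pair, passed (1.29 ± 0.17, limma adjusted p = 0.0179).

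Interferon genes themselves showed no call. Of 19 measured interferon and receptor genes, 0 passed in limma. At an unadjusted p under 0.05, 1 was higher, the receptor subunit Ifnar2 (0.41 ± 0.13), and 1 lower, Ifna6 (-0.49 ± 0.18). Ifnb1, a textbook target of IRF3 and IRF7, had ratios of -0.52, 0.12 and -0.30 on control arrays and 0.16, 0.01 and 0.52 on treated arrays, which overlap, and a difference of 0.46 ± 0.21 (limma, adjusted p = 0.659). The subtypes of interferon-alpha are near-identical in sequence, so their features may bind each other's RNA, and a gene that is not expressed also gives a ratio near 0.

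**Figure D4:**
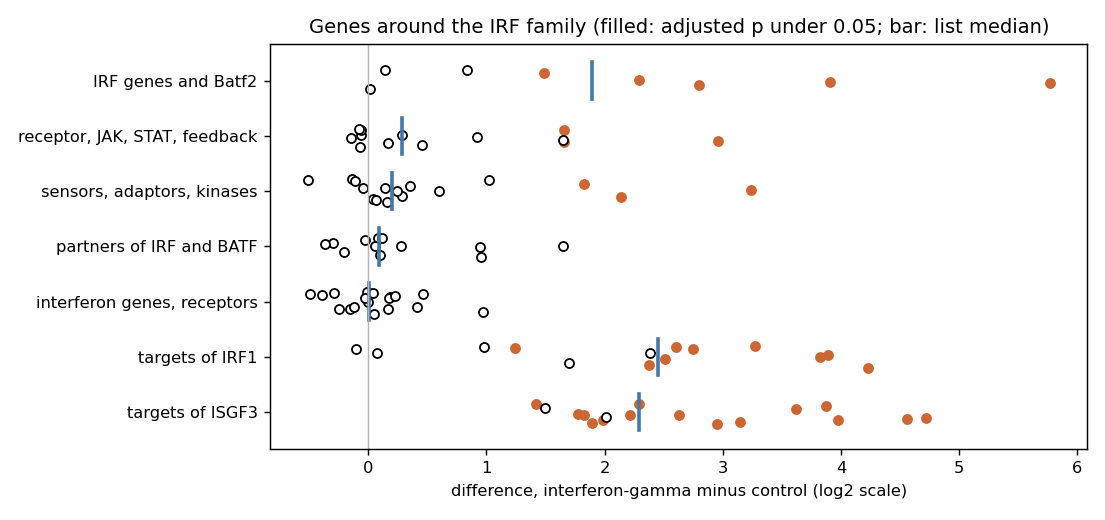
Difference between interferon-gamma and control arrays (horizontal axis, log2 scale) for the 8 genes and for each measured gene of 6 lists, 1 point per gene. Filled points have an adjusted p under 0.05 in limma over all genes, and blue bars are list medians. The targets of IRF1 and ISGF3 have medians of 2.45 and 2.29, and the list of interferon genes and receptors has no filled point.

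The genes whose profile over the 6 arrays was nearest to that of a risen member were found by Euclidean distance after the control mean of each gene was subtracted. For Irf1 they were H2-K1, Samhd1 and B2m, at distances of 0.39, 0.39 and 0.42. Those of Irf8 were Parp14, Gvin1 and Tap1 (0.42 to 0.46), those of Irf7 were Unc93a, Il18bp and Ifit3b (0.42 to 0.47), and those of Irf9 were Ifit2, Gm13479 and Inpp1 (0.19 to 0.31). Batf2 was nearest to Gbp11, Rtp4 and Igtp, at 0.71 to 0.91. The measure reflects mostly the size of the difference between the groups, and says nothing of shared control.

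Against the ganglion reference, the control means of the 8 genes ran from -1.16 ± 0.27 (SD, n = 3) for Irf5 to 0.12 ± 0.06 for Batf2. Irf1 (-0.59 ± 0.13), Irf8 (-0.49 ± 0.20), Irf9 (-0.29 ± 0.17) and Irf3 (-0.17 ± 0.11) were below 0 on all 3 control arrays, and Irf2 (0.04 ± 0.35) and Irf7 (-0.15 ± 0.35) had control arrays on both sides of 0. The ganglion holds glia, vessels, fibroblasts and macrophages besides neurons. The median control ratio was -0.45 for the glial markers, -0.62 for the endothelial, -0.50 for the fibroblast and -0.32 for the macrophage markers, 0.14 for markers of other leukocytes and -0.03 for the sympathetic neuron markers, the same as the -0.03 of all genes. The neuron markers lay on both sides of 0, from Slc18a2 at -0.58 ± 0.42 and Phox2a at -0.57 ± 0.40 to Th at 0.25 ± 0.26 and Uchl1 at 0.66 ± 0.09. These comparisons have no test, because the reference was in Cy3 throughout and dyes were not swapped.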

How the data were processed

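The authors deposited 1 log2 ratio per feature and array. Per the labels, neuron RNA was labelled with Cy5 and ganglion reference RNA with Cy3 on all arrays, so dye effects stay in each ratio and cancel only in differences between arrays. Images were read with Agilent Feature Extraction, per the submitters' processing notes. Its version, the background correction and the dye normalization are not given in the sources used here. The log2 scale was inferred from the range, -9.00 to 10.73, and the direction, Cy5 over Cy3, from the dyes and the usual convention, under which known targets such as Irf1 rise. The rise of known targets is therefore not independent of it. Array medians were 0 to 0.005. As no signals were analysed here, dim features could not be filtered, and a dim gene may have changed more than its ratio shows.

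Platform annotation gave 1 symbol for 33653 of 45220 features, several for 56 and none for 11511. Symbols were updated by gene number through the RefSeq table of GRCm38.p6 for 33517. Features of a gene were averaged. The comparison of groups used limma 3.58.1 under R 4.3.3 (lmFit, eBayes, two-sided, Benjamini-Hochberg). The fit was tried on simulated data with independent noise per gene and array, which does not cover shifts shared by many genes of an array. The number of arrays, 3 per group, limits precision. All 8 members and their features are named, with the 3 nearest genes of each called member, and list genes by their calls. Members and lists were chosen with earlier results of these data known. Alternatives were quantile normalization, array weights, values of exactly 0 as missing, a variance trend, the median over features, the genes or features of higher SD, the replicate number as a block, and leaving out each array. Fits restricted to features annotated to a RefSeq transcript, and the counts of list genes under each alternative, were added after seeing the data. Some listed genes, such as Csf1r and Irak4, were not analysed here.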

Additional observations from a re-analysis of the deposited data

How the results depend on the processing

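Irf1, Irf7, Irf8 and Batf2 passed under all 14 alternatives, with differences of 2.20 to 3.17, 2.57 to 2.99, 3.54 to 4.02 and 4.91 to 5.83 and a highest adjusted p of 0.0185, 0.0352, 0.00544 and 0.00493 (limma). In 1 of the 14, genes were kept by their SD over all 6 arrays. A difference between the groups raises that SD, so passing there is no added support. Irf9 kept its direction (1.38 to 1.62) and failed the threshold under 6. Irf5 stayed short of it under all 14 (0.68 to 0.98, adjusted p from 0.0928 to 0.646), as did Irf2 and Irf3. Irf2 ranged from -0.0455 to 0.299 and Irf3 from -0.0472 to 0.0977 when 1 array was left out, and Irf3 had no value among the genes of higher SD. The members called higher numbered 4 to 5 of 8 and the member features 6 to 8 of 13 under the alternatives, and none was called lower. The 3 pair differences kept their direction under all 14, at 1.96 to 3.03, 2.56 to 3.01 and 2.73 to 3.26. They passed in limma each time, but the noise of the partner is shared by all genes there too. Those adjusted p-values are too small, so the passing is no added support.

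With 1 array left out, the genes called higher numbered 112 to 480 (213 with all arrays), those called lower 1 to 28 (4), the features called higher 155 to 701 (329) and those called lower 3 to 50 (10). The highest counts were those without interferon-gamma array 2. Quantile normalization gave 176 features higher, 3 features lower and 1 gene lower. Array weights gave 12 genes and 16 features lower, the genes or features of higher SD 12 and 22, the variance trend 6 features lower, and features of RefSeq transcripts 4 lower. The causes were not tested. Called higher were 8 to 12 of the IRF1 targets and 12 to 17 of the ISGF3 targets.

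Whether same-numbered arrays belong together was not settled. The correlations of their deviations from the group means across genes were 0.06, 0.31 and -0.03 for numbers 1, 2 and 3. These values from 3 arrays per group cannot decide it. With the replicate block, 164 genes were higher and 2 lower, 261 features were higher and 3 lower, and 4 members and 7 member features were higher. The pairs had differences of 2.15, 2.78 and 3.07 there, with the adjusted p 0.00853 for the last, and control array 2 alone matched its own number best. Ratios without signals set no limit on how dim a feature was.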
